A study of Homo sapiens with 12 samples.

Results

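H9 and CT2, established lines of human embryonic stem cells, were compared with each other while the histone demethylase gene JMJD1C was knocked down, to ask which differences between the lines persist, vanish or arise under the knockdown. The comparison took the 2 arrays of H9 and the 2 arrays of CT2 that carried the knockdown and set them, gene by gene, beside the same line difference in untreated cells. It covered 13399 autosomal genes out of 13951 genes tested on the arrays. Of these, 12269 were detected on at least 2 of the 4 knockdown arrays, 10979 on all 4, and 440 were at background on all 4 and entered the test through other arrays.

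Total RNA was measured on Illumina bead arrays, which report the brightness of 1 bead type per probe. H9 and CT2 cells were each left untreated, given a mismatch shRNA as a control hairpin, or given the knockdown of JMJD1C, with 2 arrays in each of the 6 groups. The sequence of the hairpins, their delivery and the time after it are not given in the sources used here. Nothing in the labels says whether the 2 arrays of a group came from separate cultures, so the p-values measure the spread between these arrays, which may be technical.

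JMJD1C (also KDM3C) belongs to the family of jumonji proteins that remove methyl groups from lysine 9 of histone H3, a mark of silent chromatin. Human embryonic stem cell lines come from different embryos, and they are known to differ from each other in imprinted loci, in zinc finger genes and in genes whose promoters were methylated in culture.

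On the 12 arrays the median raw intensity ran from 150.2 to 196.8, and 44.7% to 47.31% of the probes were detected. Replicates correlated across genes, which are not independent of each other, with r from 0.9675 to 0.9909. The lowest belonged to CT2 with the mismatch shRNA, and replicate 2 of that group resembled H9 untreated replicate 1 (r = 0.9715) more than its own partner. The 4 knockdown arrays agreed well within each line, with r of 0.9888 for H9 and 0.9869 for CT2. CT2 knockdown replicate 2 correlated as closely with CT2 untreated replicate 2 (r = 0.9871) as with its partner. CT2 mismatch replicate 1 correlated best with CT2 knockdown replicate 1 (r = 0.9759), and H9 untreated replicate 2 with H9 mismatch replicate 1 (r = 0.9851). The lines stand in separate blocks of the deposited table, and the labels give no slide or scan, so that any batch that goes with the line cannot be told apart from the line. In RNA from whole cultures, fewer cells of a type and less RNA per cell cannot be told apart either.

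The 10 measured markers of pluripotent stem cells, POU5F1, NANOG, SOX2, LIN28A, DNMT3B, CRIPTO, L1TD1, PODXL, SALL4 and DPPA4, were present in both lines under the knockdown. Their summed linear intensity was 166700 and 183000 on the H9 arrays and 185800 and 190200 on the CT2 arrays. By limma at an adjusted p under 0.05, 0 of the 10 differed between the lines. Of all autosomal genes 2.77% did, so a count of 0 among 10 says little. Of the markers of other cell types the filter kept 4 of 11 for endothelium (summed 533.4 to 990.7 on the 4 arrays), 4 of 9 for heart muscle (558.5 to 1090), 4 of 9 for liver (913.7 to 1896), 6 of 9 for leukocytes (2126 to 2932) and 9 of 13 for fibroblasts (25870 to 35660).

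JMJD1C itself was reduced, not silent, on the 4 knockdown arrays. Its normalized log2 intensity was 10.58 and 10.68 on the H9 knockdown arrays and 10.75 and 10.69 on the CT2 knockdown arrays. Untreated H9 gave 12.47 and 11.51 and untreated CT2 11.45 and 11.92, while the mismatch arrays gave 11.93 and 11.49 for H9 and 12.04 and 12.36 for CT2. All 4 knockdown arrays lay below all 8 others. The difference between the lines under the knockdown, H9 minus CT2 as in every difference below, was -0.09 ± 0.27 (SE) on the log2 scale with an adjusted p of 0.955, a second JMJD1C probe gave -0.08, and median scaling gave 0.12 where the median of all genes was 0.16.

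Under the knockdown 371 of the 13399 autosomal genes, 2.77%, differed between H9 and CT2 in limma's moderated test with a Benjamini-Hochberg adjusted p under 0.05. Of these 150 (1.12% of all genes) were higher in H9 and 221 (1.65%) lower, and 308 differed at least 2-fold. The 2 H9 arrays lay beyond the 2 CT2 arrays for all 371 of them, as they did for 44.7% of all genes. In untreated cells 1958 genes, 14.6%, differed, 813 (6.07%) higher and 1145 (8.55%) lower in H9. With the mismatch shRNA 371 genes differed, 2.77%, of which 199 (1.49%) were higher and 172 (1.28%) lower in H9. Without CT2 untreated replicate 1 or 2 or H9 untreated replicate 1 the untreated count was 352, 562 or 838. Without H9 mismatch replicate 1 or 2 or CT2 mismatch replicate 1 the mismatch count was 123, 118 or 1091. The SD of the line difference over all genes was 0.4809 log2 units under the knockdown, 0.6497 untreated and 0.5086 with the mismatch shRNA. The median standard error was 0.2832 for all 3 contrasts by construction, since the fit shares 1 spread per gene. It thus does not show equal noise. The SD of the difference between replicates was 0.51 and 0.33 for untreated H9 and CT2. It was 0.39 and 0.63 with the mismatch shRNA and 0.37 and 0.40 under the knockdown.

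The count under the knockdown depended on the arrays used. Leaving out any 1 of the 4 knockdown arrays left 164 to 172 genes, and leaving out CT2 mismatch replicate 1 or replicate 2 gave 587 or 591, since that group enters the shared estimate of the spread. With H9 untreated replicate 1 and CT2 mismatch replicate 2 both left out the count was 920. Scaling the arrays by their median in place of quantiles moved the median difference of all genes from 0.01 to 0.16 log2 units and turned the split to 192 higher and 146 lower in H9, so the larger number of genes lower in H9 held for quantiles and not for medians.

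Genes were sorted by the test of each line difference and by the test of its change between untreated cells and the knockdown. A difference persists where it was called in both with the same sign, and reverses where it was called in both with opposite signs. It vanishes or arises only where it was called in 1 of them and the change itself passed the test. By these rules 214 differences persisted, 72 of them higher and 142 lower in H9, 8 vanished, 6 arose and 7 reversed. With median scaling 176 persisted, 89 higher and 87 lower in H9, so the larger number lower in H9 held for quantiles and not for medians here too. A further 1729 genes were called only without treatment and 144 only under the knockdown, with no called change, and stay unresolved. The change of the line difference passed for 24 genes, 0.179% of all, with 13 (0.097%) moving towards H9 and 11 (0.0821%) towards CT2, while 1279 genes had an unadjusted p under 0.05. Leaving out 1 knockdown array or 1 CT2 untreated array left 101 to 116 persisting differences, and leaving out CT2 mismatch replicate 1 or 2 gave 374 or 376 persisting, 45 or 47 vanishing, 19 arising with either, and 81 or 83 called changes. Called changes numbered 14 or 15 without CT2 untreated replicate 1 or 2. The 8 vanishing became 4 without either of these 2 arrays and 5 without H9 knockdown replicate 1 or H9 untreated replicate 2. The 7 reversals became 0 and 2 without CT2 untreated replicate 1 and 2, 2 without H9 untreated replicate 2, and 3 without CT2 knockdown replicate 1 or H9 knockdown replicate 2. The 6 arising became 9 without CT2 untreated replicate 1 or either H9 untreated array, 4 without CT2 knockdown replicate 1, and 39 with H9 untreated replicate 1 and CT2 mismatch replicate 2 both left out.

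**Figure D1:**
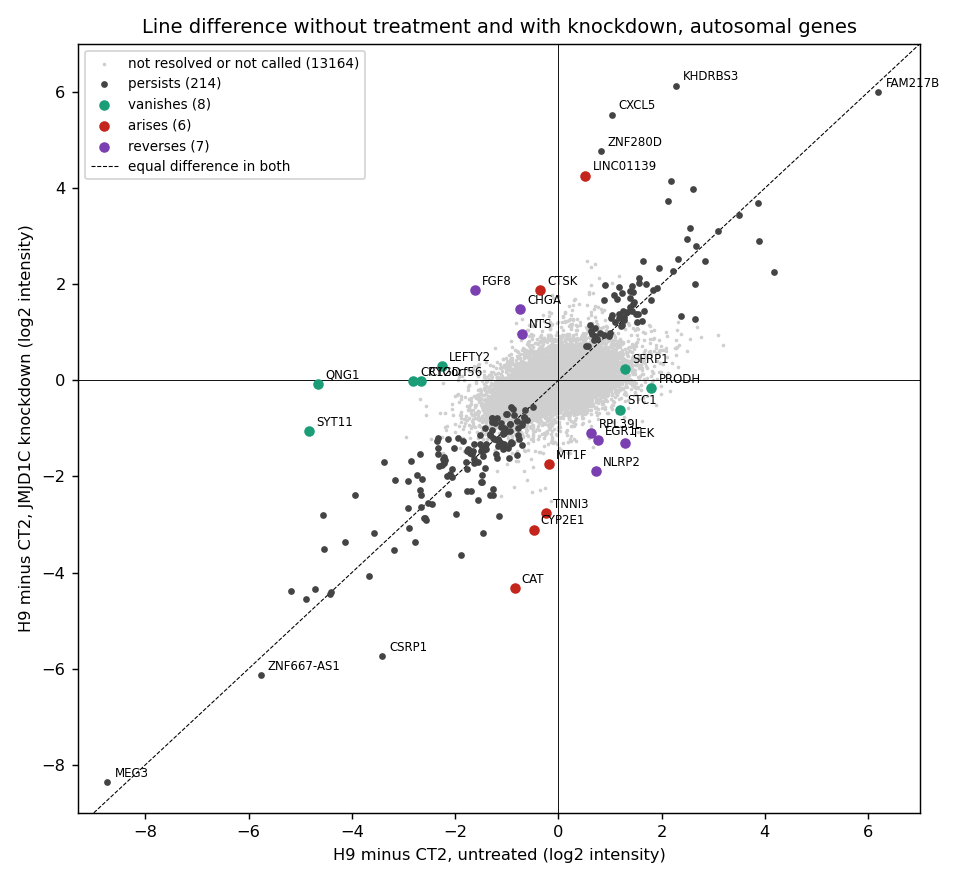
Difference between H9 and CT2 in log2 intensity without treatment (horizontal axis) and under the JMJD1C knockdown (vertical axis), 1 point per autosomal gene, 13399 in all, with the 4 classes in colour and their gene numbers in the key. Most of the 214 persisting genes lie near the dashed line of equal difference, and the 6 arising, 8 vanishing and 7 reversing genes lie away from it.

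The untreated arrays and the knockdown arrays share no sample, so the sign of a difference could be compared between them. They do share the blocks of the table by line, the normalization and the estimate of spread, so they are not fully independent. The share of all genes that kept their sign is not given here, so the excess over it cannot be judged. Of the 371 genes called under the knockdown, 334 (90%) had the same sign in untreated cells. The 221 genes called in both make up 59.6% of the knockdown calls and 11.3% of the untreated calls. Of the 1729 genes called only without treatment, 1537 (88.9%) kept their sign under the knockdown, with a median difference of 0.35 log2 units in the direction of the untreated call, where the untreated values that chose them had a median of 1.05. Against the mismatch arrays the same untreated calls behaved otherwise. Of the 1958 genes called in untreated cells, 935 (47.8%) had the same sign with the mismatch shRNA, against 1756 (89.7%) under the knockdown. The untreated and mismatch comparisons hold the pair of arrays that resemble each other across lines, and their part in this was not tested.

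Over the 214 persisting genes the median difference was 1.54 log2 units under the knockdown and 1.48 untreated. These genes were chosen by passing in both conditions, which brings the medians together, and over all 1958 genes called untreated the median in the direction of the untreated call was 1.08 untreated and 0.39 under the knockdown. With the mismatch shRNA 109 of the 214 were called with the same sign, 46 higher and 63 lower in H9, so 109 differences were called in all 3 treatments.

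The largest belonged to the imprinted cluster on chromosome 14 that carries the maternally expressed long noncoding RNAs MEG3 and MEG8 and the small nucleolar RNAs of the SNORD113 and SNORD114 families. MEG3 read 5.82 and 5.96 log2 units on the H9 knockdown arrays and 14.44 and 14.07 on the CT2 knockdown arrays. Untreated H9 gave 5.92 and 6.48 and untreated CT2 14.97 and 14.91. The arrays of the lines were far apart in each treatment. The difference under the knockdown was -8.36 ± 0.30 (SE), a 329-fold lower level in H9 (adjusted p = 5.5e-11), beside -8.74 untreated and -8.34 with the mismatch shRNA, and a second MEG3 probe gave -6.79.

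SNORD114-1, a small nucleolar RNA gene of the same cluster, read 5.31 and 5.2 in H9 and 9.61 and 9.59 in CT2 under the knockdown. Both H9 arrays were at background, where only a bound can be given: against the lowest detected signal of those arrays the level in H9 was at least 12.5-fold lower (adjusted p = 6.79e-08). MEG8 read 6.16 and 5.37 in H9 and 8.47 and 8.66 in CT2, a difference of -2.80 (adjusted p = 4.69e-05) beside -4.57 in untreated cells. The change of MEG8 between them, 1.77 log2 units, did not pass (adjusted p = 0.204).

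ZNF667-AS1, a long noncoding RNA, and ZNF667, a zinc finger gene transcribed away from it, lie head to head on chromosome 19 and were both low in H9. ZNF667-AS1 read 5.11 and 4.88 in H9 and 11.12 and 11.15 in CT2, at least 36.27-fold lower in H9 (adjusted p = 1.15e-10). ZNF667 read 5.24 and 5.25 in H9 and 9.69 and 8.95 in CT2, at least 10.29-fold lower (adjusted p = 2.01e-06). Both were at background on the H9 knockdown arrays. The line difference of ZNF667-AS1 was -5.77 untreated and -6.28 with the mismatch shRNA, and that of ZNF667 was -3.67 and -5.14. The next gene on that chromosome, ZNF471, was also lower in H9, by -2.87 log2 units (adjusted p = 4.49e-05), beside -2.61 untreated, while a second ZNF471 probe gave -1.25 and was not called (adjusted p = 0.216). A second ZNF667 probe gave -2.25.

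The promoter windows of 3 of these genes and of CAT, the antioxidant gene described below whose difference arose, are shown because promoter CpG methylation is a textbook way for lines of pluripotent cells to differ. Each runs from 250 bases before to 50 after the annotated start, read 5′ to 3′ on the gene's own strand from RefSeq on GRCh38.p14, with every CG dinucleotide in capitals. MEG3 lies at chr14:100825858-100826157 (+), ZNF667 at chr19:56477296-56477595 (-), ZNF667-AS1 at chr19:56477624-56477923 (+) and CAT at chr11:34438684-34438983 (+).
MEG3: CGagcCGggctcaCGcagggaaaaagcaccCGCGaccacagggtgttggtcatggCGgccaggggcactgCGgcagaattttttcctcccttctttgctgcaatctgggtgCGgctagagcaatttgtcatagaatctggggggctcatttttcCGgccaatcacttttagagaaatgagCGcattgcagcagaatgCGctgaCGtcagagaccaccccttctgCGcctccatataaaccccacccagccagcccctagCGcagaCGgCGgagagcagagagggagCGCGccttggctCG
ZNF667: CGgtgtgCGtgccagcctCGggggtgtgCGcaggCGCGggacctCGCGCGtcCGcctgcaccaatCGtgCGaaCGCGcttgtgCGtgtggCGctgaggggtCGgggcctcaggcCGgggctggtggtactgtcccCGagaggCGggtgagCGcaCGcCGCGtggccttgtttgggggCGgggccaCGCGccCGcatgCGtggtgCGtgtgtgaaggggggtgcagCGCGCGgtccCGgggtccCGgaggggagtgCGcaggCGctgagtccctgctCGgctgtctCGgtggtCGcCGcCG
ZNF667-AS1: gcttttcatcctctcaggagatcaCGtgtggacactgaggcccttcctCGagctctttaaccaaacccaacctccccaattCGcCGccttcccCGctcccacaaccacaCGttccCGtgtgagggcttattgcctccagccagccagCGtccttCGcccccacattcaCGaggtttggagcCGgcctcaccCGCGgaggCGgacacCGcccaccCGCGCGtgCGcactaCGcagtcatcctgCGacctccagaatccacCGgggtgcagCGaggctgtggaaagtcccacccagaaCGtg
CAT: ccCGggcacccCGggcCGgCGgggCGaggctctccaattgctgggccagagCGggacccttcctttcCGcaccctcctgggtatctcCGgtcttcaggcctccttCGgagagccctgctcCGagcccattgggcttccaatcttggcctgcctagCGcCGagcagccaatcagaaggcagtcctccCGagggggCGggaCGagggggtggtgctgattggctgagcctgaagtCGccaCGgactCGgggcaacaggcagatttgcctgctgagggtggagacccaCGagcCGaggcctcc

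MEG3 holds 19 CG in its 300 bases, ZNF667 42, ZNF667-AS1 24 and CAT 20, beside a median of 14 over 35116 promoter windows of that length. As many or more stand in 42.9% of all windows for MEG3, in 5.85% for ZNF667, in 33.9% for ZNF667-AS1 and in 41.2% for CAT. Of these 4 windows that of ZNF667 is the richest in CG. The windows of ZNF667 and ZNF667-AS1 are 28 bases apart and point in opposite directions. Methylation was not measured on these arrays, and the letters describe the reference, not the 2 lines.

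Further genes were silent or nearly so in H9 and expressed in CT2 whatever the treatment. DNAJA4, a co-chaperone of the HSP40 family, read 5.24 and 5.07 in H9 and 9.82 and 9.6 in CT2 under the knockdown, at least 13.49-fold lower in H9 (adjusted p = 6.47e-08). QPCT, the enzyme that cyclizes glutamine at protein ends, read 5.93 and 6.1 against 10.4 and 10.44, a 21.1-fold difference (adjusted p = 3.03e-08). MLKL, which executes necroptosis, read 4.93 and 4.75 against 9.07 and 9.39, at least 9.65-fold lower (adjusted p = 6.47e-08). ZNF560, a zinc finger gene, read 4.88 and 4.8 against 9.3 and 9.26, at least 9.996-fold lower (adjusted p = 6.47e-08). In all 4 the H9 and CT2 arrays were apart in each treatment, with untreated differences of -4.89 for DNAJA4, -4.40 for QPCT, -5.18 for MLKL and -4.43 for ZNF560.

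In the other direction, FAM217B read 10.78 and 10.97 in H9 and 4.84 and 4.91 in CT2, at least 29.33-fold higher in H9 (adjusted p = 2.97e-10), beside untreated readings of 11.6 and 11.21 against 5.34 and 5.07. RPL22L1, a paralog of a ribosomal protein, read 8.71 and 9.32 against 5.35 and 5.29, at least 8.066-fold higher (adjusted p = 2.95e-06). ZNF280B, a zinc finger gene, read 8.61 and 9.14 against 5.13 and 5.72, at least 7.322-fold higher (adjusted p = 3.11e-06). All 3 were at background on the CT2 knockdown arrays. TRIM21, a cytosolic antibody receptor and ubiquitin ligase, read 9.12 and 9.17 against 6.1 and 5.95 and was 8.66-fold higher in H9 (adjusted p = 4.82e-06). ECHDC3, a mitochondrial protein related to enoyl-CoA hydratases, read 9.75 and 8.89 against 5.39 and 5.29, at least 9.96-fold higher (adjusted p = 1.03e-06). The untreated differences of RPL22L1, ZNF280B, TRIM21 and ECHDC3 were 3.86, 3.49, 3.10 and 2.61.

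**Figure D2:**
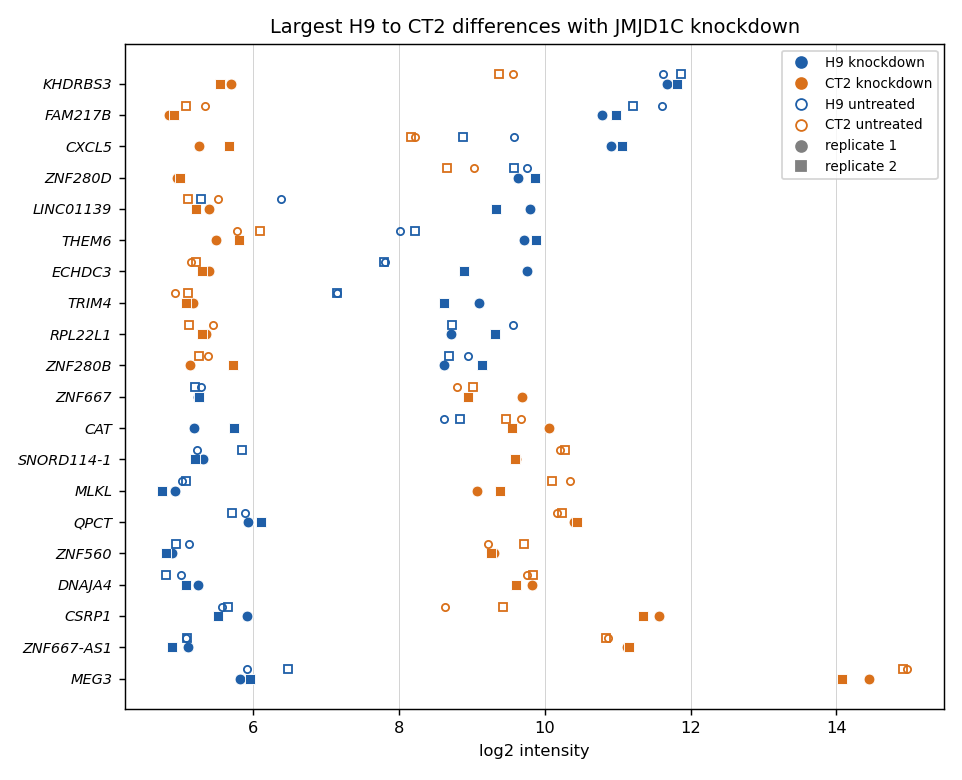
Normalized log2 intensity (horizontal axis) of the 10 genes with the largest difference in each direction under the JMJD1C knockdown, with filled symbols for the knockdown arrays, open symbols just above them for the untreated arrays, blue for H9 and orange for CT2, circles for replicate 1 and squares for replicate 2. MEG3 spans from 5.82 in H9 to 14.44 in CT2, and the filled and open symbols of a line lie far apart for CXCL5, ZNF280D, KHDRBS3, CAT, LINC01139 and CSRP1.

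For 3 persisting genes the difference had the same sign in both conditions but grew past the test of change. KHDRBS3, an RNA-binding splicing regulator, read 11.67 and 11.81 in H9 and 5.69 and 5.54 in CT2 under the knockdown, against 11.62 and 11.87 in H9 and 9.56 and 9.37 in CT2 untreated. H9 changed by -0.01 (adjusted p = 0.995), and CT2 fell by 3.85 log2 units (adjusted p = 2.73e-07). The mismatch arrays of CT2 already read 5.65 and 6.14, and the change from them to the knockdown did not pass (-0.29, adjusted p = 0.55). A second KHDRBS3 probe gave line differences of 3.29 untreated, 4.70 with the mismatch shRNA and 4.90 under the knockdown, closer together than on the first probe. ZNF280D, a zinc finger gene, was also low with both hairpins: CT2 read 9.03 and 8.66 untreated, 5.13 and 5.35 with the mismatch shRNA and 4.96 and 4.99 under the knockdown, while H9 lay between 9.5 and 9.87 on all 6 arrays. Other ZNF280D probes gave 0.89 and 0.70 untreated and 4.05 and 2.57 under the knockdown. For both genes the 4 hairpin-treated CT2 arrays were low, whichever hairpin they carried.

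CXCL5, a chemokine that attracts neutrophils, differed from both controls. H9 read 9.57 and 8.87 untreated, 8.99 and 9.05 with the mismatch shRNA and 10.91 and 11.06 under the knockdown. CT2 read 8.22 and 8.16, then 8.68 and 9.09, then 5.26 and 5.66. H9 rose by 1.77 log2 units against untreated cells (adjusted p = 0.00207) and CT2 fell by 2.73 (adjusted p = 8.78e-05). The line difference went from 1.03 untreated and 0.13 with the mismatch shRNA to 5.53, at least 31.61-fold, and its change passed against both controls (4.50, adjusted p = 2.62e-05, and 5.39, adjusted p = 1.1e-06). A second CXCL5 probe gave 4.89, 1.09 and 0.29 for the same 3 differences, knockdown, untreated and mismatch.

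CSRP1, a LIM-domain protein of smooth muscle, was at background on the H9 arrays of each treatment. CT2 read 8.63 and 9.43 untreated, 5.41 and 5.67 with the mismatch shRNA and 11.56 and 11.35 under the knockdown, where H9 was at least 45.06-fold lower (adjusted p = 1.4e-08). The change of the line difference was -5.41 against the mismatch arrays (adjusted p = 1.15e-05) and did not pass against the untreated arrays (-2.32, adjusted p = 0.0613). TRIM4, a ubiquitin ligase, was at background on all CT2 arrays and on the H9 mismatch arrays, and H9 read 7.15 and 7.15 untreated, 5.31 and 4.88 with the mismatch shRNA and 9.09 and 8.61 under the knockdown. Its line difference grew by 3.80 against the mismatch arrays (adjusted p = 0.000205) and by 1.59 against the untreated arrays (adjusted p = 0.244). A second TRIM4 probe, not called, gave -0.02. THEM6, a thioesterase-like gene, read 8.01 and 8.22 in untreated H9, 7.36 and 7.46 with the mismatch shRNA and 9.71 and 9.88 under the knockdown, where it was at least 13.87-fold above CT2 (adjusted p = 4.22e-06). Its change passed against the mismatch arrays (2.65, adjusted p = 0.0465) and not against untreated cells (1.97, adjusted p = 0.248).

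Of the 6 differences that arose, CAT had the lowest adjusted p under the knockdown. Its untreated difference had the same sign and just missed the threshold (-0.85, adjusted p = 0.0589), so by its values a smaller difference grew. With the mismatch shRNA the CAT difference was -0.37 (adjusted p = 0.597). CAT encodes catalase, which breaks down hydrogen peroxide. H9 read 8.61 and 8.83 untreated, 9.59 and 9.28 with the mismatch shRNA and 5.19 and 5.73 under the knockdown. CT2 read 9.67 and 9.47, then 9.5 and 10.11, then 10.05 and 9.55. CAT fell by 3.26 log2 units in H9 against untreated cells (adjusted p = 7.09e-06) and fell by 3.97 against the mismatch arrays (adjusted p = 4.93e-07), to background on both arrays. In CT2 the changes were 0.23 and -0.01 (adjusted p = 0.916 and 0.992). The level in H9 was at least 14.33-fold below that in CT2 (adjusted p = 6.47e-08), and a second CAT probe gave -2.90 under the knockdown, -0.92 untreated and -0.95 with the mismatch shRNA.

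TNNI3, the inhibitory troponin of heart muscle, also fell in H9. It read 8.94 and 8.82 in untreated H9, 9.01 and 9.31 with the mismatch shRNA and 6.1 and 5.68 under the knockdown, while CT2 read 9.15 and 9.09, then 9.82 and 9.94, then 8.73 and 8.58. In CT2 the change did not pass against untreated cells (-0.47, adjusted p = 0.663), and TNNI3 fell by 1.22 against the mismatch arrays (adjusted p = 0.0132). The line difference went from -0.24 to -2.77 (adjusted p = 2.95e-06), a change of -2.53 (adjusted p = 0.00217). CYP2E1, a cytochrome P450 that oxidizes ethanol, instead rose in CT2. It was at background on the arrays of both lines without treatment and with the mismatch shRNA, and on the H9 knockdown arrays, while CT2 read 7.98 and 8.47 under the knockdown. Under the knockdown H9 was at least 4.813-fold lower (adjusted p = 1.52e-05). CYP2E1 thus passed the detection filter only through the CT2 knockdown arrays, the same arrays that make its call.

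LINC01139, a long noncoding RNA, was at background in CT2 throughout and read 6.38 and 5.28 in untreated H9, 7.11 and 6.89 with the mismatch shRNA and 9.79 and 9.33 under the knockdown, at least 11.79-fold above CT2 (adjusted p = 1.57e-06). CTSK, the collagen-cleaving protease cathepsin K, rose in H9 by 2.29 log2 units against untreated cells (adjusted p = 0.000305), from 6.96 and 7.03 to 9.33 and 9.24, while CT2 read 7.34 and 7.36 and then 7.64 and 7.19. For CTSK the change of the line difference did not pass against the mismatch arrays (1.78, adjusted p = 0.0687). MT1F, a metallothionein, completes the 6 and is described with its family.

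Of the 8 differences that vanished, 4 were not called on the mismatch arrays and did not change against them, namely QNG1, LEFTY2, PRODH and CRYGD. QNG1, which salvages the tRNA base queuine, read 4.8 and 5.28 in untreated H9 and 9.75 and 9.65 in untreated CT2, 5.25 and 5.2 against 5.39 and 5.42 with the mismatch shRNA, and 8.87 and 9.3 against 9.35 and 8.96 under the knockdown. Both lines were thus at background with the mismatch shRNA, and under the knockdown their arrays overlapped at a detected level. LEFTY2, an inhibitor of NODAL signalling, read 10.95 and 11.52 in untreated H9 against 13.51 and 13.49 in CT2, 10.96 and 11.02 against 11.46 and 10.59 with the mismatch shRNA, and 15.37 and 15.35 against 14.93 and 15.2 under the knockdown. LEFTY2 rose against untreated cells by 4.13 log2 units in H9 (adjusted p = 8.47e-08) and by 1.57 in CT2 (adjusted p = 0.00682). PRODH, which degrades proline, and CRYGD, a crystallin of the lens, had line differences under the knockdown of -0.16 and -0.02. CRYGD was at background on all 4 knockdown arrays, on the mismatch arrays and in untreated H9. It passed the detection filter only through the untreated CT2 arrays (7.87 and 7.72), the same arrays that make its untreated call.

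SYT11, a synaptotagmin of vesicle traffic, fell in CT2 under the knockdown. H9 read 7.31 and 7.09 untreated, 7.13 and 7.11 with the mismatch shRNA and 6.06 and 6.79 under the knockdown. CT2 read 12.06 and 11.99, then 11.44 and 10.74, then 7.35 and 7.63. CT2 fell by 4.54 log2 units against untreated cells (adjusted p = 2.84e-07), and the line difference went from -4.83 to -1.06, which no longer passed (adjusted p = 0.0679). The 4 knockdown arrays of the lines did not overlap for SYT11, and in 5 of 25 other settings the remaining difference passed.

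STC1, the hormone stanniocalcin, went from a line difference of 1.20 to -0.61 (change -1.81, adjusted p = 0.0107) and also changed against the mismatch arrays (-1.50, adjusted p = 0.0344). SFRP1, a secreted modulator of WNT signals, went from 1.30 to 0.24 as H9 fell by 0.95 (adjusted p = 0.00149). C12orf56 went from -2.66 to -0.02 as H9 rose from background to 8.17 and 7.92. The changes of SFRP1 and C12orf56 did not pass against the mismatch arrays (adjusted p = 0.455 and 0.0756).

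Of the 7 reversals, TEK was the only one that also reversed against the mismatch arrays. TEK is the endothelial receptor of angiopoietins. H9 read 11.29 and 11.26 untreated, 11.1 and 11.44 with the mismatch shRNA and 7.64 and 8.1 under the knockdown. CT2 read 9.75 and 10.21, then 8.99 and 9.03, then 9.28 and 9.06. TEK fell by 3.40 log2 units in H9 (adjusted p = 7.89e-07), and the line difference turned from 1.29 (adjusted p = 0.0031) to -1.30 (adjusted p = 0.00504), with a second probe at 1.52 and -1.22. The other endothelial markers kept by the filter, CLDN5, ENG and KDR, did not pass between the lines under the knockdown, and PECAM1, CDH5, VWF, TIE1, ESAM, EMCN and ERG were not kept.

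FGF8, a growth factor of the early embryo, read 6.7 and 6.63 in untreated H9 against 8.43 and 8.14 in CT2, and 8.69 and 8.92 against 6.68 and 7.16 under the knockdown. The line difference turned from -1.62 to 1.88, and a second FGF8 probe gave -1.78 and 1.68. With the mismatch shRNA FGF8 read 5.45 and 6.22 in H9 and 6 and 5.9 in CT2, below both other treatments in each line. EGR1, an immediate early transcription factor downstream of ERK, read 11.25 and 11.63 against 10.69 and 10.68 untreated and 8.88 and 8.9 against 10.29 and 9.97 under the knockdown. EGR1 fell by 2.55 log2 units in H9 (adjusted p = 4.63e-06).

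CHGA and NTS, the granule protein chromogranin A and the peptide neurotensin, turned the other way. CHGA read 9.04 and 9.08 against 9.98 and 9.61 untreated and 10.57 and 10.47 against 8.88 and 9.2 under the knockdown. NTS read 11.27 and 10.85 against 11.71 and 11.83 untreated and 13.24 and 13.52 against 12.37 and 12.44 under the knockdown, after a rise in H9 of 2.32 log2 units (adjusted p = 4.44e-06). RPL39L, a ribosomal protein paralog of the germ line, fell by 1.83 in H9 (adjusted p = 3.13e-05), so that its line difference went from 0.64 to -1.10. A second RPL39L probe gave 0.13 untreated, 0.14 with the mismatch shRNA and -2.51 under the knockdown (adjusted p = 8.98e-06), so the untreated difference that reversed was near 0 on that probe. The changes of FGF8, EGR1, CHGA, NTS and RPL39L did not pass against the mismatch arrays (adjusted p = 0.0756, 0.0687, 0.105, 0.393 and 0.143).

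**Figure D3:**
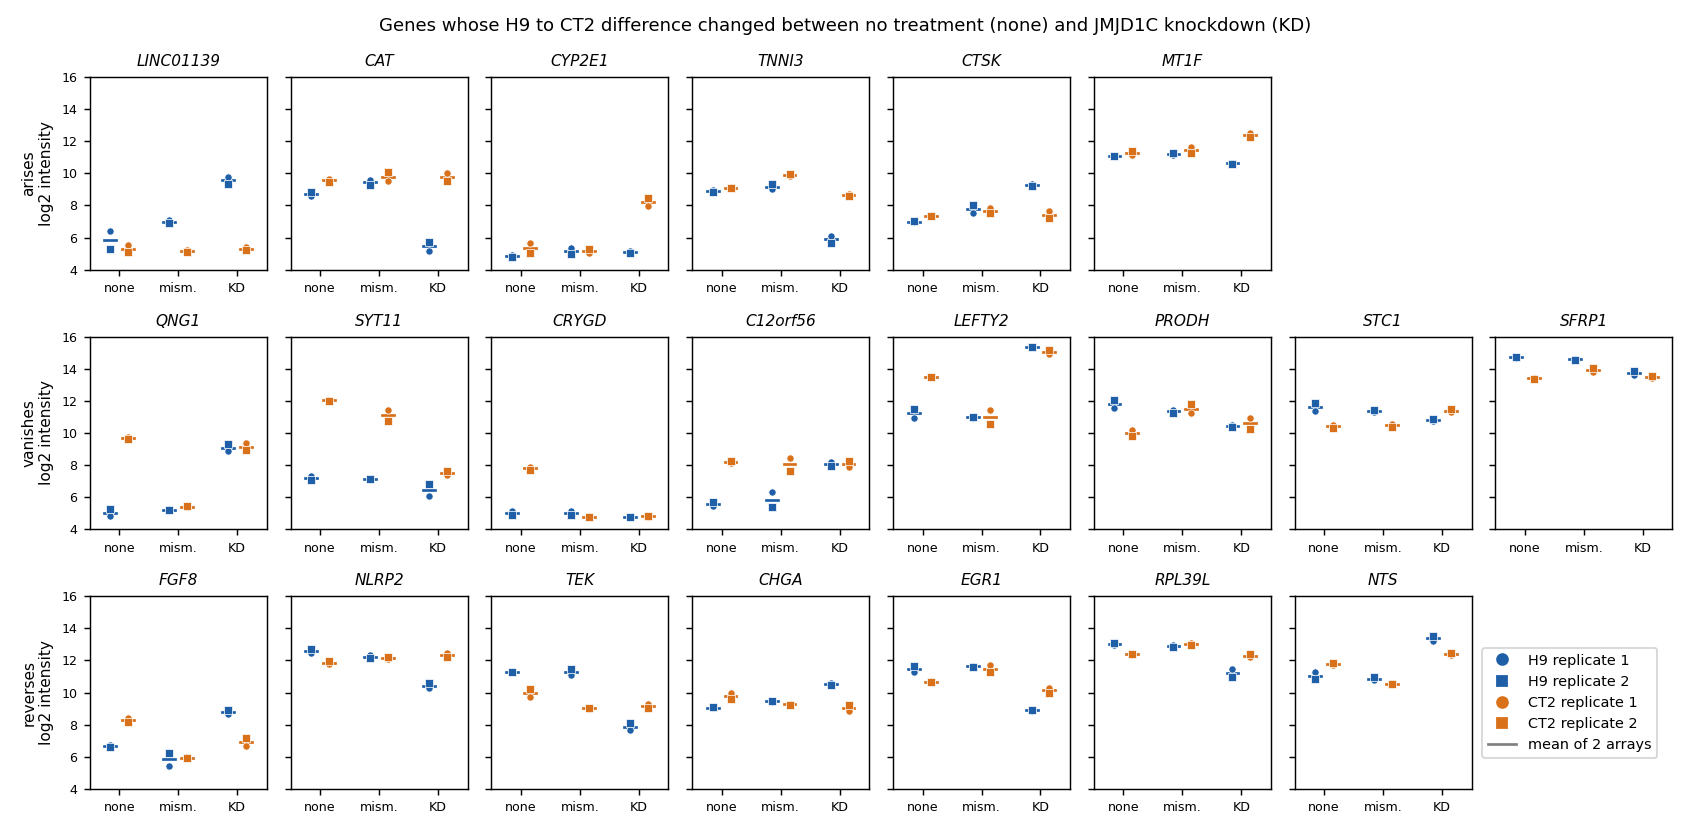
Normalized log2 intensity (vertical axes, 1 shared scale) of the 21 genes whose H9 to CT2 difference arose, vanished or reversed, by treatment (none, mismatch shRNA, knockdown), with blue for H9, orange for CT2, circles and squares for replicates 1 and 2 and a line for the mean of 2 arrays. CAT and TNNI3 drop in H9 under the knockdown, CYP2E1 appears in CT2, and QNG1 and CRYGD are near the floor in both lines with the mismatch shRNA.

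Within each line the knockdown was read against both controls. Against untreated cells 397 genes changed in H9 (2.96%) and 42 in CT2 (0.313%), and against the mismatch arrays 330 changed in H9 (2.46%) and 612 in CT2 (4.57%). The order of the lines thus turned with the baseline. The change of the line difference against the mismatch arrays passed for 52 genes, 0.388%, of which 14 (0.104%) moved towards H9 and 38 (0.284%) towards CT2, and 10 of these also changed against untreated cells. Without CT2 mismatch replicate 1 it passed for 506, and without any 1 of the H9 mismatch or knockdown arrays for 20 to 31. With the mismatch arrays as the baseline 137 differences persisted, 30 arose, 14 vanished and 5 reversed. The knockdown arrays enter both baselines, so these counts are not independent of those above.

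Among the gene groups, chosen as pathways, lineages and families, the metallothioneins had the lowest median line difference. These small cysteine-rich proteins bind zinc and copper. Of 7 measured members 4 were lower in H9 and 0 higher, 57.1% against the 2.77% of all genes, and the median was -1.34 beside 0.01 over all genes. In untreated cells 1 of the 7 was lower and 0 higher, with a median of -0.50. MT1F read 10.64 and 10.6 in H9 and 12.49 and 12.24 in CT2 under the knockdown (-1.74, adjusted p = 3.39e-05), against 11.1 and 11.1 and 11.16 and 11.41 untreated. MT1G read 11.24 and 11.5 against 13.26 and 13.09 (-1.81, adjusted p = 9.36e-06).

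The change of the line difference was called for 1 member. MT1F had a change of -1.56 against untreated cells (adjusted p = 0.0232), and it rose by 1.08 log2 units in CT2 (adjusted p = 0.0277). On the mismatch arrays 4 members were lower in H9, MT1G (-1.86), MT1H (-1.99), MT1E (-1.56) and MT2A (-1.31, adjusted p = 0.00497). MT1X read 13.8 and 13.35 against 13.83 and 14.11 and did not pass (adjusted p = 0.668). MT1M (-1.30, adjusted p = 0.126) and MT2A (-0.61, adjusted p = 0.265) did not pass under the knockdown. Metallothionein genes are near copies of each other, a probe may take up signal from more than 1, and second probes of MT1E and MT1H gave -0.33 and -0.55 and were not called.

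The NLRP genes encode NOD-like receptors, of which NLRP2 and NLRP7 act in the egg and early embryo. Of 6 measured members 3 were lower in H9 under the knockdown and 0 higher, where 1.65% of all genes were lower, and 2 of the 6 with median scaling. The median was -0.54 beside 0.01 over all genes. NLRP2 read 12.44 and 12.71 in untreated H9 and 10.29 and 10.58 under the knockdown, while CT2 read 11.75 and 11.96 and then 12.47 and 12.19. Its line difference turned from 0.72 to -1.89 (change -2.61, adjusted p = 9.01e-05) and also changed against the mismatch arrays (-1.98, adjusted p = 0.00152). NLRP7, its neighbour on chromosome 19, read 7.7 and 7.88 in untreated H9 and was at background on both H9 knockdown arrays with 5.3 and 5.42, while CT2 read 7.97 and 8.13 and then 7.82 and 7.38.

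NLRP7 changed against the mismatch arrays (-2.50, adjusted p = 0.00833) and missed the threshold against untreated cells (-1.98, adjusted p = 0.0613), and a second NLRP7 probe gave -0.92 (adjusted p = 0.216). In H9 NLRP2 fell by 2.14 log2 units (adjusted p = 7.31e-06) and NLRP7 fell by 2.43 (adjusted p = 0.000196). NLRP8 was lower in H9 in untreated cells as well, -1.28 beside -0.78, and its call was lost under 13 of 25 other settings.

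**Figure D4:**
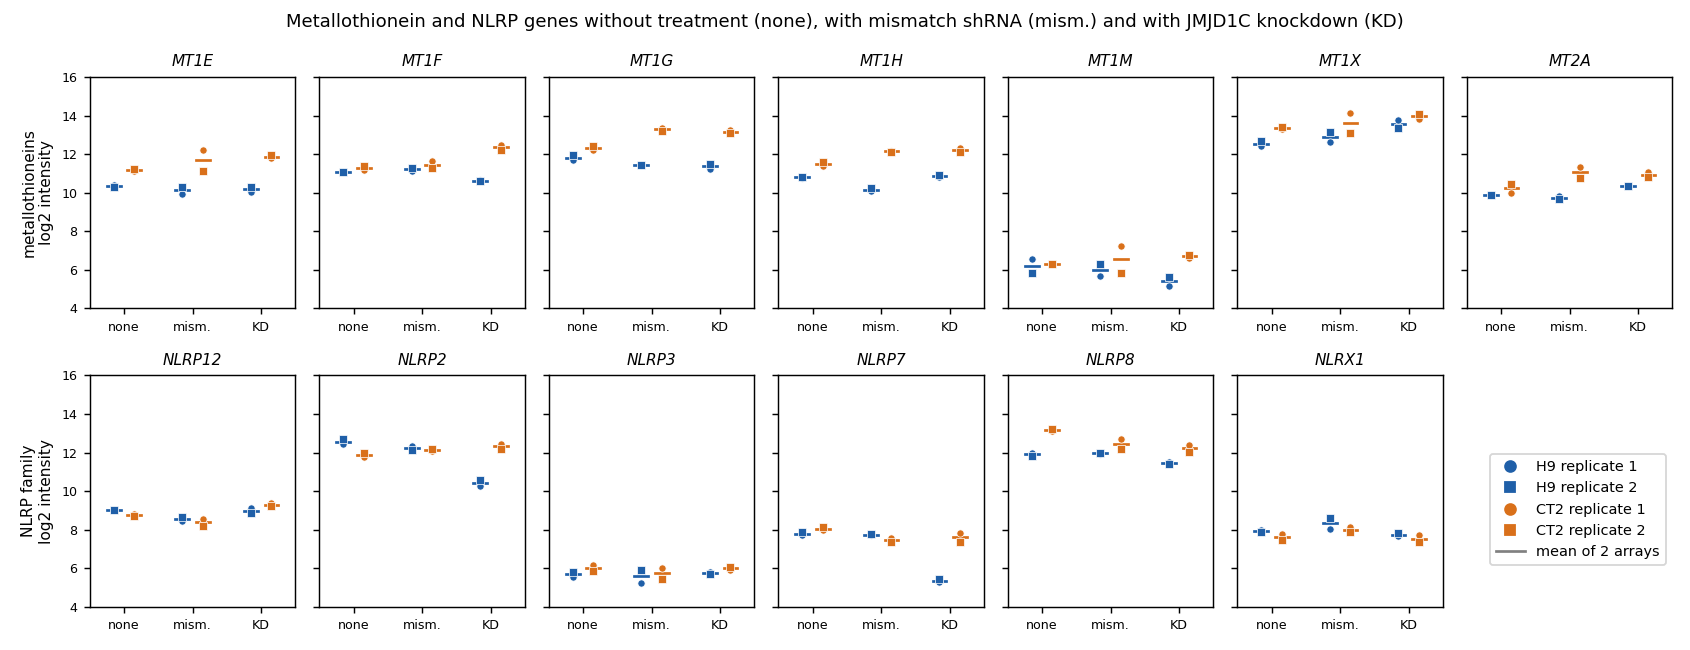
Normalized log2 intensity (vertical axes, 1 shared scale) of the 7 measured metallothioneins and 6 measured NLRP genes by treatment, with blue for H9, orange for CT2, circles and squares for replicates 1 and 2 and a line for the mean of 2 arrays. Under the knockdown MT1E, MT1F, MT1G and MT1H are lower in H9 than in CT2, and NLRP2 and NLRP7 drop in H9.

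The shares of called genes in the groups that follow stand beside 2.77% of all genes, and their medians beside 0.01. The groups are small, so that 1 gene moves a share by several percentage points. Contractile genes gave 5 members lower in H9 and 0 higher out of 29 (17.2%), with a median of -0.25. Besides CSRP1 and TNNI3 these were the muscle actins ACTA1, ACTA2 and ACTG2. ACTA1 read 13.64 and 13.72 against 14.95 and 15 (-1.29, adjusted p = 2.76e-05), ACTA2 7.98 and 7.9 against 9.19 and 9.66 (-1.48, adjusted p = 0.00348) and ACTG2 11.83 and 12 against 12.96 and 13.08 (-1.10, adjusted p = 0.000868). All 3 persisted from untreated cells, with differences of -0.92, -1.66 and -1.06. With the mismatch shRNA ACTA1 and ACTG2 differed by 0.26 and 0.49 and were not called (adjusted p = 0.415 and 0.157). Their line differences changed against the mismatch arrays (-1.55, adjusted p = 0.000899, and -1.59, adjusted p = 0.00433). On the mismatch arrays 3 of the 29 contractile genes were higher in H9 and 1 lower. In untreated cells 4 were higher and 5 lower, where 14.6% of all genes differed. The nearly identical actins can share signal. Of the heart muscle markers TNNI3 and NPPB were lower in H9 and MYL7 and MYH6 did not pass, and TNNT2, MYH7, NKX2-5, ACTN2 and NPPA were not kept. The NPPB call was lost under 7 of 25 other settings.

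Among 36 imprinted genes 4 were lower in H9 and 0 higher (11.1%), namely MEG3, MEG8, NLRP2 and NNAT, and the median of the group was 0.07. NNAT, a small membrane protein of neurons, read 11.69 and 11.63 against 12.6 and 12.39 (-0.83, adjusted p = 0.0165), and a second NNAT probe gave -1.10 and was not called (adjusted p = 0.105). The NNAT call was lost under 6 of 25 other settings. Of 23 neuron genes 4 were higher in H9 and 1, NNAT, lower (21.7%), with a median of -0.10. In untreated cells this group leaned the other way, with 1 higher and 8 lower, where 14.6% of all genes differed. Beside CHGA and NTS, the higher ones were STMN2, a tubulin-binding protein of growing neurites, at 10.15 and 9.81 against 8.12 and 8.32 (1.75, adjusted p = 0.00342), and MLLT11 at 14.18 and 14.23 against 13.02 and 13.09 (1.15, adjusted p = 0.000449). The STMN2 difference was 0.00 without treatment, and its change did not pass (1.76, adjusted p = 0.187). A second STMN2 probe gave 0.57 untreated and 1.65 under the knockdown. ZIC2, a transcription factor of the neural plate, was the 1 called gene of 17 neural progenitor genes and persisted, at 14.41 and 14.47 against 12.78 and 12.68 (1.71, adjusted p = 1.1e-05) beside 1.38 untreated.

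Of 28 core pluripotency genes 1 was lower in H9 and 0 higher (3.57%). ZFP42, which encodes the pluripotency marker REX1, read 12.18 and 12.32 in H9 and 13.7 and 13.83 in CT2 (-1.52, adjusted p = 3.39e-05). ZFP42 fell by 1.19 log2 units in H9 against untreated cells (adjusted p = 0.000876), from 13.67 and 13.22, and the change in CT2 was 0.04. The change of its line difference passed against the mismatch arrays (-1.88, adjusted p = 0.000813) and lay just past the threshold against untreated cells (-1.23, adjusted p = 0.0504).

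Of 13 chemokines, CXCL5 and CCL2 were higher in H9 and CXCL16 lower (23.1%), with a median of -0.11. CCL2, which attracts monocytes, read 8.58 and 8.36 against 7.17 and 6.92 (1.42, adjusted p = 0.00913), and CXCL16 6.7 and 6.77 against 8.56 and 9.13 (-2.11, adjusted p = 0.000804). Of 30 clustered protocadherins, adhesion proteins of neurons, 4 were lower in H9 (13.3%, median -0.19), all persisting. PCDHB5 read 9.09 and 9.04 against 11.07 and 10.63 (-1.78, adjusted p = 0.00051), and PCDHA2, PCDHB3 and PCDHB12 were at background in H9. With the mismatch shRNA PCDHB3 differed by -0.27 (adjusted p = 0.797), and its call under the knockdown was lost under 9 of 25 other settings.

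Of 28 interferon response genes, the antiviral MX1 (-1.30), IFI6 (-1.32) and HERC5 (-1.15) were lower in H9 and IFITM3 (0.72) higher (14.3%, median 0.02). A second IFI6 probe gave -0.21, and the call of IFITM3 was lost under 11 of 25 other settings. Of 23 genes of FGF and ERK signalling, EGR1 and the receptor FGFR3 (-1.06, adjusted p = 0.0131) were lower and FGF8 higher (13%, median -0.18), with a second FGFR3 probe at 0.53. Of 32 extracellular matrix and integrin genes, COL1A1, a fibrillar collagen (-1.61, adjusted p = 0.00279), and COL12A1 were lower in H9. FBN2 of that group was higher (9.38% called, median -0.002), and a second COL12A1 probe gave -0.33 and was not called. Of 13 neural crest genes the endothelin receptor EDNRB was lower (-1.45, adjusted p = 0.000986) and 0 higher (7.69%, median -0.15). Of 19 retinoic acid and HOX genes, CYP26A1, which degrades retinoic acid, was higher in H9 (1.96, adjusted p = 1.52e-05). DHRS3 of that group was lower (10.5% called, median -0.05), and its call was lost under 9 of 25 other settings. Other CYP26A1 probes gave 2.11 and 2.18, and a further one that was not called gave -0.19. COL1A1, EDNRB and CYP26A1 all persisted.

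The germline gene PIWIL2, which guards against transposons, read 8.36 and 7.91 in CT2 and was at background in H9 under the knockdown, at least 4.523-fold lower (adjusted p = 0.000126), with -3.35 from a second probe. Its difference was -1.16 in untreated cells, and the change passed against the mismatch arrays (-2.64, adjusted p = 0.0272) but not against untreated cells (-1.67, adjusted p = 0.308).

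In many groups 0 members were called under the knockdown. These were NODAL and activin signalling (0 of 20, or 1 with median scaling), WNT (0 of 16), BMP (0 of 13), NOTCH (0 of 16), naive pluripotency (0 of 12), mitosis (0 of 30), cholesterol synthesis (0 of 24), glycolysis and hypoxia (0 of 29), the respiratory chain (0 of 37), DNA methylation (0 of 18), Polycomb (0 of 28), p53 targets (0 of 18) and the microRNA pathway (0 of 20). The same held for 22 jumonji and related demethylases, JMJD1C among them. Its closest relatives KDM3A and KDM3B differed by -0.19 (adjusted p = 0.905) and -0.05 (adjusted p = 0.97). A count of 0 says little for small differences. Arrays were simulated with each gene's fitted spread, equal in all groups, and genes were changed on the H9 knockdown arrays only. There the test of the line difference recovered 21% of genes changed by 1 log2 unit and 81% of those changed by 2. The test of its change recovered 4% and 49%. The real groups differed in spread, with an SD between replicates from 0.33 to 0.63, so recovery on them may differ.

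Of the 371 called genes 118 had another kept probe. For 101 of them every other probe had the same sign, and for 40 at least 1 of these was itself called. A probe of the opposite sign occurred for 17, and 0 of those was called.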

How the data were processed

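The mean bead signal of each probe was taken as an intensity from the non-normalized table, per the file headers. A detection p-value stands beside each intensity, per the file headers. The submitters' processing notes name GenomeStudio with no version. H9 and CT2 were joined by probe identifier (47320 and 47315 probes, 47314 shared), corrected for background with limma 3.58.1 in R 4.3.3 (normal-exponential model, offset 16), quantile-normalized across 12 arrays and expressed in log2 units. The authors' deposited value table, also in intensity and normalized within each line, served as an alternative. A probe entered if its detection p was under 0.05 on 2 or more arrays (25905 did), and those with 1 symbol were reduced to the brightest per gene (13951 genes, 13941 matched by Entrez identifier). Probes with several symbols or none (6829) were not used, and genes on X and Y (539) or without a chromosome (13) are not reported.

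A limma model with 1 mean per group, intensity trend and robust settings was fitted to all 12 arrays. Tests were two-sided with Benjamini-Hochberg adjustment over all genes tested and a threshold of 0.05. An exact test of 2 against 2 arrays cannot go below p = 0.333. Errors beside differences are the model's standard errors. No 2 arrays had identical values. Where both arrays of a group were at background (no detection p under 0.05), its fold is a bound computed from the lowest signal that was detected, and the log2 difference is the fitted value.

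Named genes were the 10 largest called differences in each direction, the 8 persisting genes largest in all 3 treatments, up to 8 each of the vanishing, arising and reversing genes, up to 4 called members of each list, and JMJD1C. Members of the families drawn, ACTA2, ZNF471 and genes given as near relatives, markers or neighbours were added after their values were seen. The genes, lists and classes were chosen with earlier results of these data known, so patterns already seen in these arrays gain no independent support here. The scripts were tested on simulated data. Alternatives in background correction, scaling, filter, probe choice, arrays, threshold and baseline are given in the closing section.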

Additional observations from a re-analysis of the deposited data

Results flagged for a closer look

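The response of a gene to the knockdown differed between the lines, by limma's test of the change of the H9 minus CT2 difference, for 24 genes against untreated cells. On the log2 scale the difference moved towards H9 for QNG1 (4.59), CXCL5 (4.50), ZNF280D (3.95), KHDRBS3 (3.85), SYT11 (3.76), LINC01139 (3.74), FGF8 (3.50), CRYGD (2.79), C12orf56 (2.65), LEFTY2 (2.56), CTSK (2.22), CHGA (2.21) and NTS (1.68). It moved towards CT2 for SFRP1 (-1.06), MT1F (-1.56), RPL39L (-1.73), STC1 (-1.81), PRODH (-1.96), EGR1 (-2.00), TNNI3 (-2.53), TEK (-2.59), NLRP2 (-2.61), CYP2E1 (-2.62) and CAT (-3.49).

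Among the named genes 22 differed in their response against the mismatch arrays. The difference moved towards H9 for CXCL5 (5.39), TRIM4 (3.80), SYT11 (2.90), THEM6 (2.65) and LINC01139 (2.45). It moved towards CT2 for HERC5 (-1.40), MT1F (-1.49), STC1 (-1.50), HSPA1B (-1.50), ACTA1 (-1.55), ACTG2 (-1.59), FGFR3 (-1.70), ZFP42 (-1.88), AFP (-1.95), NLRP2 (-1.98), TNNI3 (-2.05), NLRP7 (-2.50), PIWIL2 (-2.64), CYP2E1 (-3.08), TEK (-3.56), CAT (-3.96) and CSRP1 (-5.41). Both baselines use the same 4 knockdown arrays. CT2 mismatch replicate 2 resembled an array of the other line, and without CT2 mismatch replicate 1 or replicate 2 the number of autosomal genes with a called change against the mismatch arrays was 506 or 62, beside 52 with both.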

How the results depend on the processing

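All 83 named genes other than JMJD1C kept the side of the threshold of their line difference under the knockdown without either H9 untreated array, and no direction of a called difference turned in any setting run. The calls of 22, 25, 21 and 23 of them were lost without H9 knockdown replicate 1 or 2 or CT2 knockdown replicate 1 or 2. Leaving out 1 array assumes that the lone array varies like the others. It moved the knockdown count of 371 to between 164 and 591, the untreated count of 1958 to between 352 (without CT2 untreated replicate 1) and 2901, and the mismatch count of 371 to between 118 and 1091. The called changes moved to between 14 and 83 against untreated and 20 and 506 against mismatch. Persisting differences then numbered 101 to 376, vanishing 4 to 47, arising 4 to 19 and reversing 0 to 8, and JMJD1C differed by -0.15 to -0.04.

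With H9 untreated replicate 1 and CT2 mismatch replicate 2 left out, the counts were 920 under the knockdown, 149 and 190 changed against untreated and mismatch, 453 persisting, 88 vanishing, 39 arising and 13 reversing. A fit of the 4 knockdown arrays alone called 961, or 964 with these also quantile-normalized alone. Median scaling gave 15 vanishing, 11 arising and 4 reversing, and splits of 1073 higher and 573 lower untreated and 262 and 134 with mismatch (median of all genes 0.13 and 0.20). No background correction, the authors' table and a 2-fold minimum each gave 11 arising, and the 2-fold minimum 1168 untreated and 2 reversing. Every kept probe tested apart gave 5 vanishing and 10 arising. An adjusted p under 0.01 gave 198 under the knockdown, 669 untreated, 165 with mismatch, 23 changed against mismatch, 105 persisting, 4 vanishing and 2 reversing. Without trend and robust settings 3 reversed.

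Between groups, the deviations of replicates with the same number correlated from -0.37 to 0.39 across genes. They were not unrelated, with 0.39 for CT2 mismatch and H9 knockdown and -0.37 for H9 untreated and CT2 mismatch. Their signs varied, so the numbers do not pair the arrays, and what the arrays share was not tested. With the number as a replicate block 281 genes were called under the knockdown and 5 vanished.

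Chosen after seeing the data, the mismatch arrays as baseline gave 137 persisting, 14 vanishing and 30 arising, and the mean of untreated and mismatch arrays gave 933 for the baseline line difference, 45 changed, 21 arising and 3 reversing. Signal near background limits the folds of 45 called genes in H9 and 37 in CT2.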

Other observations

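Among 13377 adjacent pairs of tested autosomal genes, 25 pairs were both called under the knockdown with the same sign and 1 with opposite signs, CUZD1 (1.81) and FAM24B (-2.29) on chromosome 10. In 370 pairs the first gene was called, and in 6.76% of these the second was called with the same sign, where 2.77% of all genes were called in either direction. The same-sign pairs hold 46 genes, and 27 of the 46 persisted. Beside the metallothioneins on chromosome 16 and the ZNF667 and NLRP loci on chromosome 19, they include FAM217B with PPP1R3D (2.14), which encodes a glycogen-targeting subunit of protein phosphatase, KHDRBS3 with COL22A1 (2.95), a collagen of tissue junctions, THEM6 with LY6E (1.21), and ZNF280D with MNS1 (1.48). CALCA (-1.32) and CALCB (-3.18), the calcitonin genes, were both lower in H9, as were LGALS14 (-1.88) and CLC (-2.78), 2 galectin genes. HLA-DRB5, HLA-DRB6 and HLA-DRB1 on chromosome 6 and OR2A20P, OR2A9P and OR2A1 on chromosome 7 were higher in H9. Second probes of LGALS14 (-0.91), HLA-DRB6 (0.73) and OR2A1 (0.61) were not called, while those of OR2A20P (1.43) and OR2A9P (2.06) were. All pairs were picked by their position after the values were known and carry no test of their own. Several hold genes of 1 family, whose probes may share signal, so the 6.76% includes pairs that may not be independent readings.

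The share called and its direction varied over the chromosomes, around 2.77% of all genes with 150 higher and 221 lower. Chromosome 19, rich in zinc finger genes, held 40 called genes out of 1032 (3.88%), of which 4 were higher and 36 lower in H9, and the median of all its genes was -0.07 under the knockdown, -0.12 untreated and -0.08 with the mismatch shRNA. With median scaling it held 30 (5 higher and 25 lower), with a median of 0.07 beside 0.16 over all genes. Chromosome 16 held 15 of 622 (2.41%), 1 higher and 14 lower, or 6 and 13 with median scaling. Chromosomes 15 and 18 leaned the other way, with 6 higher and 1 lower of 445 and 5 higher and 1 lower of 194. No test was run on these splits. Of 411 genes whose symbol starts with ZNF and a digit, ZNF667-AS1 included, 17 were called (4.14%), 5 higher and 12 lower in H9, and 15 of the 17 persisted, among them ZNF560, ZNF667, ZNF280B and ZNF280D. Among the 12988 other autosomal genes 354 were called (2.73%) and 199 persisted. SETDB1, a methyltransferase of the same lysine that JMJD1C acts on and a partner of zinc finger repressors, was higher in H9 under the knockdown. It read 11.34 and 11.18 against 10.37 and 10.22 (0.96, adjusted p = 0.0308), beside a difference of 0.21 untreated. SETDB1 was the 1 called gene of 18 measured genes of such methyltransferases and HP1 proteins (5.56%). Its call was lost under 10 of 25 other settings, and a link to the zinc finger genes was not tested.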
